A study of Mus musculus with 12 samples.

Results

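The level of every gene on day 3 after liver resection was compared with the mean of its levels on days 1 and 7. A difference can come from a gene that stood apart on day 3 only, or from one that differed from a single flanking day. Each side was therefore also fitted alone. Male C57 Black mice lost 70% of the liver, and alveolar macrophages were taken from their lungs 1, 3 or 7 days later with magnetic beads carrying an antibody to Siglec F. The comparison used 9 of the 12 arrays of the study, 3 for each day. The other 3 arrays came from mice with an intact liver, whose cells were sorted in the same way. They entered the fit for its estimate of the spread and serve below as a reference level. No sham operation is named in the labels, so loss of liver and the surgery itself cannot be told apart. Each value is a log2 signal of a probe set on a Clariom S mouse array, in which 1 unit is a doubling. All 22206 of 28846 probe sets that are not controls were compared. A difference below is always the day 3 mean minus the average of the day 1 and day 7 means, with its standard error (SE) from limma.

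Alveolar macrophages live in the air spaces of the lung, take up surfactant, debris and microbes, and break them down in lysosomes. Siglec-F, a lectin that binds sialic acids, is carried by these cells and by eosinophils, so beads against it can collect both. After partial hepatectomy the remaining liver cells enter the cell cycle and the organ regains its mass within days to weeks, while cytokines and growth factors circulate. Replication-dependent histones are made in S phase to package new DNA. Their mRNAs end in a stem-loop in place of a poly(A) tail.

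The sorted cells carried the genes that define alveolar macrophages on each of the 3 days. Siglecf, which encodes the antigen of the beads, measured 8.61, 7.89 and 8.50 on the 3 day 1 arrays, 8.38, 8.58 and 8.67 on day 3 and 8.89, 8.54 and 8.77 on day 7. The day 3 arrays lay inside the range of the other days, with a difference of 0.01 ± 0.17. Under other processing choices that difference took either sign, from -0.45 to 0.09. Pparg, the nuclear receptor needed for alveolar macrophage development, measured 8.54 to 8.82 on day 3 against 8.55 to 9.27 on days 1 and 7. Of 18 measured genes of alveolar macrophage identity, 1 was lower on day 3 at an unadjusted p under 0.05 (5.6% beside 2.16% of all probe sets). This was Marco, a scavenger receptor for particles and bacteria, with a difference of -0.91 ± 0.26. Without the 3 arrays of weakest control separation, described below, 1 of the 18 was higher and 3 were lower. With the control bioB, also described below, as a covariate 0 were higher and 7 lower. The list's median then moved from -0.07 to -0.39, and Marco was at -1.55 (limma adjusted p = 0.0479).

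Some spiked controls moved with the days. The hybridisation control bioB, a bacterial transcript added in a fixed amount, measured 7.44 to 7.83 on day 3, 8.19 to 10.29 on days 1 and 7 and 7.53 to 7.72 in the intact group. The 3 day 3 arrays were thus below all 6 others (difference -1.08, exact two-sided permutation p = 0.0238, the smallest that 3 against 6 arrays allow, and 0.0833 after adjustment over 7 control measures). The spikes bioC, bioD and cre were also lower on average on day 3, by -0.91, -0.96 and -0.32, with overlap between the arrays. For each the same permutation test gave p = 0.0476, and 0.0833 after adjustment. The labelling control dap was high on day 3 replicate 1, at 6.88, and on day 7 replicates 2 and 3, at 7.77 and 6.47, against 2.13 to 2.89 on the other 9 arrays. The separation of exon from intron controls was 0.852 to 0.888 on 9 arrays and 0.809 to 0.837 on 1 array of each day, namely the second of day 1, the first of day 3 and the second of day 7. The part of these shifts in the results below was not tested. Values without these arrays or with bioB as a covariate are given beside the list counts and genes that they turn or move most. Within groups bioB varied most on day 1, at 8.65, 10.29 and 8.62 on replicates 1 to 3. With the group in the fit, the covariate thus rests largely on day 1 replicate 2, the array of weakest separation. Values from that fit are therefore no correction for the gap in bioB between days. On a given array 95% of the intron controls, a measure of background, lay below 5.01 to 5.69.

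**Figure D1:**
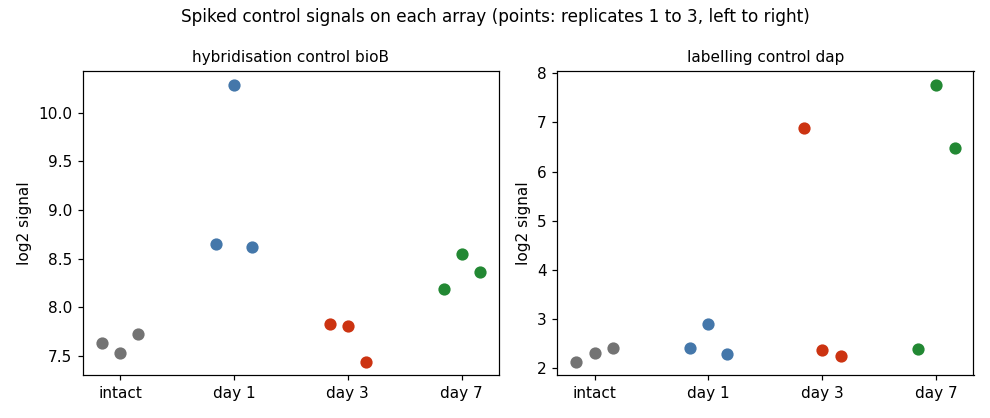
Log2 signal (y axis) of the spiked controls bioB and dap on each of the 12 arrays by group (x axis); each point is 1 array, replicates 1 to 3 from left to right. On day 3 bioB lies at 7.44 to 7.83, below all arrays of days 1 and 7, while dap is high on 1 day 3 array and 2 day 7 arrays.

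No probe set passed an adjusted p of 0.05 (limma with Benjamini-Hochberg adjustment over 22206), a share of 0%, and the smallest adjusted p was 0.199, shared by 5 probe sets. On day 3, 1103 probe sets stood higher (4.97% of those tested) and 479 stood lower (2.16%) with an unadjusted p under 0.05, against 1110.3 in both directions together that the threshold itself would give. Of these calls 69.7% were higher, a split that moved to 54.9% after quantile normalization of the values and 55.4% after median centring, and to 40.3% with bioB as a covariate. That covariate left the median of all probe sets at -0.004, but the number of gene lists described below with a median above 0 was 27 of 35 without it and 6 with it. Array by array, the 3 day 3 arrays lay above all 6 arrays of days 1 and 7 for 409 probe sets (1.84%) and below all 6 for 326 (1.47%). Of the 409, 167 (40.8%, or 0.752% of all probe sets) were also above the 3 intact arrays, and of the 326, 111 (34.0%, or 0.500% of all) were also below them. For the rest, the day 3 arrays overlapped or lay on the near side of the intact ones, and the intact mean was nearer to day 3 than to days 1 and 7 for 195 of the 409 and 189 of the 326. The values that follow are read against these shares, and none of them passed adjustment in the comparison over all 9 arrays.

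Histone genes were 12 of the 15 genes named by rule as lower on day 3, and 29 of the 479 lower probe sets at an unadjusted p under 0.05. Of 31 measured genes on a list of replication-dependent histones, 29 had a lower mean on day 3, while 50.9% of all probe sets had a higher one. At an unadjusted p under 0.05, 21 were lower, which is 67.7% beside 2.16% of all probe sets. For 13 of the 31 the 3 day 3 arrays lay below all 9 other arrays, beside 0.500% of all probe sets. The median difference of the list was -0.74, beside 0.005 for all probe sets. It was -0.38 against day 1 alone, -1.02 against day 7 alone and -0.93 against the intact group. Since the earlier results that led to this comparison already held histones, the list is a description and no independent support.

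H4c11 and H4c12 encode histone H4, the partner of H3 at the core of the nucleosome, and are 2 of its near-identical copies on mouse chromosome 13. Their promoters are printed because they come first and second by p among the lower genes and share much of their sequence. The stretches are the 250 bases before the start of each gene in RefSeq on GRCm38.p6, at chr13:21734784-21735033 on the plus strand and chr13:21750554-21750803 on the minus strand. Capitals mark the letters GTCCGC, which are the reverse complement of the core GCGGAC bound by the histone H4 factor HINFP.
H4c11: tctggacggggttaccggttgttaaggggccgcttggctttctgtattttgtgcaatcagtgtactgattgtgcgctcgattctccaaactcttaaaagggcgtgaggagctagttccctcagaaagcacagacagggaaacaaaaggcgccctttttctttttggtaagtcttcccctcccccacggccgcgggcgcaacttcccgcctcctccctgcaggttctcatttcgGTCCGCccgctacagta
H4c12: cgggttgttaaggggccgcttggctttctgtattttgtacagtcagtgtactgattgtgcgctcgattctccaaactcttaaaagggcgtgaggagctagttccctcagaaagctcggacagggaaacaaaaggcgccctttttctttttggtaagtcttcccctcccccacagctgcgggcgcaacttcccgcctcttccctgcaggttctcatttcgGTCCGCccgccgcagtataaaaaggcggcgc
The longest stretch that both hold without a difference is 72 bases. The motif begins 17 bases before the start of H4c11 and 31 before that of H4c12. On either strand the letters GCGGAC were in 7.4% of 32851 mouse promoters of this length, in 7 of 10 promoters of the H4 genes on the array and in 11 of 48 promoters of all histone genes matched. The letters CCAAT, the core of a common promoter element, were in 13 of 13 H2B promoters, 3 of 10 H4 promoters and 33.8% of all. A match says only that the letters are there.

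H4c11 had the smallest p of the lower genes. It measured 7.68, 7.64 and 7.45 on day 3, against 8.29, 8.39 and 8.10 on day 1, 8.61, 8.67 and 8.52 on day 7 and 8.37, 8.63 and 8.65 in the intact group. The 3 day 3 arrays were the lowest 3 of the 12. The difference was -0.85 ± 0.13, or 1.80-fold less (limma adjusted p = 0.199). Over the alternatives it stayed between -0.93 and -0.69, with an adjusted p from 0.0525 to 0.825. H4c12 measured 5.73, 6.41 and 6.19 on day 3, 6.73, 7.11 and 6.91 on day 1, 7.25, 7.59 and 7.04 on day 7 and 7.26 to 7.43 in the intact group. Again no day 3 array reached another group, and the difference was -1.0 ± 0.18. H4c1 stood higher on the scale but had the same order, with 7.16, 7.93 and 7.69 on day 3, 8.20, 8.13 and 8.53 on day 1, 9.15, 9.11 and 8.46 on day 7 and 8.74 to 8.88 in the intact group.

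The order of days 3, 1 and 7 from low to high also held for the H2A and H3 genes named by rule, but not for all histones. The H2B gene H2bc4 had means of 7.50 on day 1, 8.24 on day 3 and 7.77 on day 7. H2ac10, an H2A gene, measured 6.22, 6.68 and 6.65 on day 3 against 6.96, 6.82 and 7.26 on day 1 and 7.94, 8.07 and 7.57 on day 7. The intact arrays, at 7.48 to 7.56, lay between days 1 and 7. H3c6, an H3 gene, had the largest difference of the histones named, -1.22 ± 0.25, or 2.34-fold less. It measured 5.04, 5.89 and 5.74 on day 3, 6.76, 6.04 and 6.32 on day 1 and 7.68, 7.23 and 6.66 on day 7, and the gap between the highest day 3 and the lowest day 1 array was small. H3c14 and H3c15 had identical values on every array and are in effect 1 measurement, but both are included in the histone counts above and below. They were at 6.95, 7.11 and 6.96 on day 3, 7.22 to 7.62 on day 1 and 7.88 to 8.40 on day 7. Copies of a histone gene differ by few bases, so which copy a signal came from is uncertain.

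The classes did not take part equally. Among all 53 genes named as histones of these classes, 50 had a lower mean on day 3 and 29 were lower at an unadjusted p under 0.05. These were 9 of 11 H4 genes, 7 of 10 H3 genes, 9 of 13 H2A genes, 2 of 15 H2B genes and 2 of 4 H1 genes. For 7 of the H4 genes and 5 of the H3 genes the day 3 arrays lay below all 9 others, as they did for 1 H2A and 1 H2B gene. The median difference was -0.78 for H4, -0.75 for H3, -0.74 for H2A and -0.38 for H2B. Among genes with a mean signal above 4, 8 of 10 H4, 7 of 9 H3, 9 of 12 H2A and 1 of 9 H2B genes were lower at that p. The difference between the classes was not tested.

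The histone level was not a pulse from a flat line. The mean over the 31 listed genes was 6.29 to 6.41 on the intact arrays, 5.47 to 6.07 on day 1, 5.26 to 5.76 on day 3 and 6.16 to 6.66 on day 7. Days 1 and 3 overlapped in this mean, and both lay below all intact and all day 7 arrays. Across 28 alternatives 17 to 26 members were lower at an unadjusted p under 0.05 and the list's median stayed between -0.95 and -0.59. Without the 3 arrays of weakest exon to intron separation 23 were lower, and with bioB as a covariate 26. In sorted cells, fewer cells of a type and less RNA per cell cannot be told apart.

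**Figure D2:**
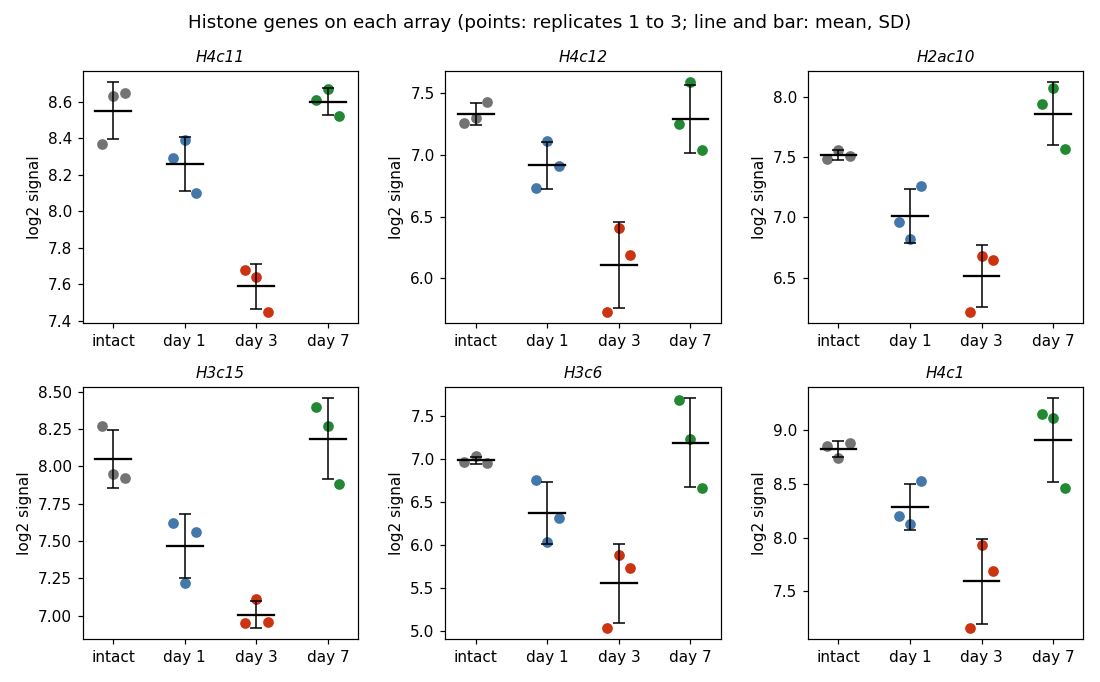
Log2 signal (y axis) of 6 histone genes on each array by group (x axis); points are replicates 1 to 3, the line is the mean and the bar the SD of 3 arrays. The 3 day 3 arrays are the lowest in every panel, for H4c11 at 7.45 to 7.68 against 8.10 or more on all others.

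Other genes of the cell cycle were looked at without the histones. Of 35 measured cell cycle genes, 30 had a lower mean on day 3, while 50.9% of all probe sets had a higher one. At an unadjusted p under 0.05, 3 were lower (8.6% beside 2.16% of all probe sets), and the median was -0.28. Mki67, a marker of cycling cells, measured 7.28, 5.93 and 6.02 on day 3, 6.44 to 6.86 on day 1 and 7.49 to 7.88 on day 7, so the first day 3 array stood apart from the other pair. Mcm6, a subunit of the helicase that opens replication origins, had a difference of -0.77 ± 0.29, and Ccnb2, a mitotic cyclin, one of -0.52 ± 0.19. The count moved with single arrays, from 1 without day 3 replicate 2 to 8 without day 1 replicate 2, and it was 11 without the 3 arrays of weakest separation. It was 12 without the arrays carrying the labelling control and 15 with bioB as a covariate, where the median was -0.71. Ncapd3, a subunit of condensin II outside the list, was among the 15 lower genes named by rule, at 5.56, 5.49 and 5.56 on day 3, 5.67 to 6.29 on day 1 and 6.29 to 6.85 on day 7.

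Only 3 of those 15 genes were not histones. Beside Ncapd3 they were Sf3a2, a subunit of the spliceosome's U2 particle, and Ear6, a ribonuclease of the eosinophil-associated family. Sf3a2 measured 5.47, 5.0 and 5.38 on day 3 against 5.93 to 6.31 on day 1, 5.76 to 6.32 on day 7 and 5.79 to 5.97 in the intact group. Ear6 had the largest difference of the 15, -1.28 ± 0.27, or 2.43-fold less (limma adjusted p = 0.352). It measured 6.45, 6.86 and 7.42 on day 3, 8.32, 8.78 and 7.86 on day 1 and 8.35, 8.38 and 7.45 on day 7. The highest day 3 and the lowest day 7 array nearly met, and day 3 overlapped the intact arrays at 7.16 to 7.43. Ear6 was the only one of the 15 whose day 3 arrays did not also stand below the intact group.

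The 15 genes named by rule as higher on day 3 were of many kinds. Cd63, a tetraspanin of late endosomes and lysosomes, measured 9.45, 9.60 and 9.23 on day 3. It measured 7.95, 7.35 and 8.11 on day 1, 8.43, 7.68 and 8.36 on day 7 and 7.56, 7.86 and 7.16 in the intact group. Every day 3 array exceeded all 9 others by a clear gap. The difference was 1.44 ± 0.23, or 2.72-fold (limma adjusted p = 0.199), and ranged from 0.97 with bioB as a covariate to 1.54 over the alternatives. Against the intact group alone Cd63 differed by 1.90 ± 0.26 (limma adjusted p = 0.0674).

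Cdo1 encodes cysteine dioxygenase, which turns cysteine into cysteine sulfinic acid on the way to taurine and sulfate. It measured 6.62, 7.11 and 6.54 on day 3, 5.04, 4.55 and 5.84 on day 1, 4.68, 4.28 and 4.14 on day 7 and 4.83, 5.91 and 5.79 in the intact group. The day 3 arrays were the highest 3 of the 12, and days 1 and 7 overlapped. Its difference of 2.0 ± 0.30 was the largest of the 15 higher genes named by rule, at 4.0-fold (limma adjusted p = 0.199). Without day 1 replicate 3, the highest of that group, it was 2.17 with an adjusted p of 0.0468, and its adjusted p over all alternatives ran up to 0.68. With bioB as a covariate the difference was 1.46.

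Apobec1, a cytidine deaminase known for editing Apob mRNA, measured 7.50, 8.02 and 7.78 on day 3, 6.36, 6.14 and 6.67 on day 1 and 6.56, 6.89 and 7.18 on day 7. Intact arrays, at 6.89 to 7.21, reached the upper end of day 7 and stayed below day 3. The difference was 1.14 ± 0.18, or 2.20-fold. Zfp354c, a zinc finger protein, was the fourth gene at the adjusted p of 0.199 and lay near background, at 5.08, 5.0 and 4.87 on day 3 against 4.04 to 4.28 on days 1 and 7. Myo5a, an actin motor that carries organelles, measured 6.69, 7.23 and 6.75 on day 3, 5.24 to 5.86 on day 1 and 6.05 to 6.21 on day 7. Its difference was 1.00 ± 0.19, and 0.65 with bioB as a covariate. Of the 15 higher genes 10 also stood above all intact arrays, Myo5a, Apobec1 and Zfp354c among them.

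Several of the 15 have a known place at the lysosome. Igf2r, the cation-independent mannose 6-phosphate receptor that delivers enzymes to lysosomes, had a difference of 1.01 ± 0.21. Its signals were below the intron limit on every array, at 4.05, 4.55 and 4.08 on day 3, 3.20 to 3.65 on day 1 and 2.64 to 3.33 on day 7, and the intact arrays reached 4.15. Rragd, a Rag GTPase that recruits mTORC1 to the lysosome, was as dim, at 3.14, 3.94 and 3.67 on day 3 against 2.42 to 2.71 on day 1 and 2.42 to 3.03 on day 7. Cpq, a carboxypeptidase, differed by 0.96 ± 0.20 in the same dim range. Differences of such dim probe sets are close to background.

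The Igf2r promoter is shown as the example of the E-box letters CACGTG, the core of the element bound by TFEB and its relatives in lysosomal genes. It is the 250 bases before the RefSeq start on GRCm38.p6, at chr17:12769707-12769956 on the minus strand, with both matches in capitals.
Igf2r: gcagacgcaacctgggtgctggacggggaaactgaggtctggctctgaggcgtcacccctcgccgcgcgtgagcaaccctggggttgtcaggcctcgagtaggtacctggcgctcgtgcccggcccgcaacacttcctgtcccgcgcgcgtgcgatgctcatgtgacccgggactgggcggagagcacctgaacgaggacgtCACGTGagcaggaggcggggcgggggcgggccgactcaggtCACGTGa
The matches begin 48 and 7 bases before the start. The letters, which read the same on both strands, were in 9 of 34 matched promoters of the lysosome list (26.5%), in 6.0% of all promoters and in 0 of 48 histone promoters.

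Gpr65, a receptor that senses protons, measured 6.74, 6.72 and 6.73 on day 3, 4.57, 4.27 and 5.82 on day 1, 6.04, 6.02 and 5.92 on day 7 and 5.86 to 6.25 in the intact group. Day 3 and day 7 were tight and apart, whereas day 1 was spread widely. The difference was 1.29 ± 0.27 and became 1.52 without day 1 replicate 3, the highest of that group (limma adjusted p = 0.00833). It was 0.75 with bioB as a covariate, and its limma adjusted p over all alternatives ran up to 0.884. Clec12a, an inhibitory C-type lectin, measured 6.31, 6.86 and 6.62 on day 3, 5.13, 3.92 and 5.28 on day 1 and 5.87, 5.27 and 5.39 on day 7, a difference of 1.45 ± 0.30 that was 0.65 with bioB as a covariate. Its highest intact array, at 6.28, almost met the lowest of day 3. Fgl2, a fibrinogen-like protein with prothrombinase activity, measured 7.89 to 8.30 on day 3, 5.71 to 6.70 on day 1 and 7.29 to 7.88 on day 7, so most of its difference of 1.13 ± 0.24 came from day 1. When bioB was a covariate it was 0.58. The other 4 of the 15 were the ciliary protein Iqcb1, the Golgi protein Gask1b, the ubiquitin ligase Rnf138 and Asap1, which acts on Arf GTPases. Their differences were 1.10, 0.94, 0.95 and 0.64.

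**Figure D3:**
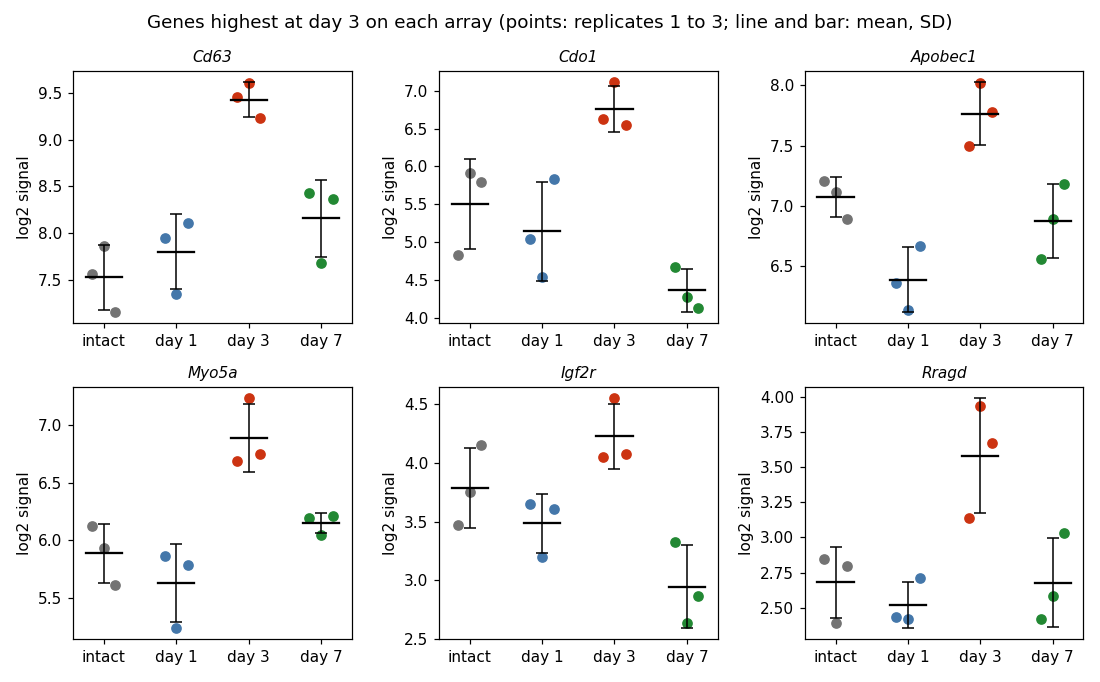
Log2 signal (y axis) of 6 genes highest on day 3 on each array by group (x axis); points are replicates 1 to 3, the line is the mean and the bar the SD of 3 arrays. Cd63 lies at 9.23 to 9.60 on day 3 and at 8.43 or less elsewhere, while Igf2r and Rragd are dim and Igf2r overlaps the intact arrays.

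The wider lysosome list followed Cd63 only in part. Of 40 measured members, 31 had a higher mean on day 3, as 50.9% of all probe sets did, and 4 were higher at an unadjusted p under 0.05, 10% beside 4.97% of all probe sets, with a median of 0.11. The 4 were Cd63, the proteases Ctsl and Ctss and the ceramidase Asah1. Asah1 measured 8.68, 8.90 and 9.08 on day 3 against 8.26 to 8.72 on day 1 and 8.29 to 8.51 on day 7, a difference of 0.47 ± 0.15. Ctsl was split within day 3, at 7.46, 8.74 and 8.57, against 6.44 to 7.47 on day 1 and 7.18 to 7.84 on day 7. The count ran from 2 without day 3 replicate 2 or 3 to 7 without day 3 replicate 1 or day 7 replicate 1. In the fit with bioB the list turned over, with 2 members higher, 5 lower and a median of -0.25, and Ctsl was at 0.27.

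Day 3 replicate 1 stood apart from the other pair for several genes, Apoe among them. Apoe, the lipoprotein that carries cholesterol out of macrophages, measured 8.61, 12.22 and 11.61 on day 3. It measured 9.01 to 9.41 on day 1, 9.07 to 9.18 on day 7 and 8.50 to 9.13 in the intact group. Replicates 2 and 3 were the highest 2 of the 12 arrays, and replicate 1 lay below every array of days 1 and 7. The difference was 1.62 ± 0.57 over all arrays (limma adjusted p = 0.595) and 2.72 without day 3 replicate 1 (limma adjusted p = 9.3e-04). Without the 3 arrays of weakest separation it was 2.64 ± 0.21 (adjusted p = 4.2e-04). Both of these fits keep only replicates 2 and 3 of day 3, so the split within day 3 no longer counts in their spread.

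Mfge8, which bridges dying cells to phagocytes, had the same split, at 5.15, 8.45 and 7.48 on day 3, 3.76 to 5.16 on day 1, 4.23 to 5.21 on day 7 and 5.39 to 5.72 in the intact group. Without day 3 replicate 1 it differed by 3.39 (limma adjusted p = 0.00843), and over all arrays by 2.45 ± 0.55 (adjusted p = 0.411). Sdc1, a heparan sulfate proteoglycan known as a plasma cell marker, measured 3.19, 6.63 and 5.39 on day 3 against 2.85 to 3.50 on days 1 and 7. It differed by 2.71 without that array (limma adjusted p = 0.00775). These 3 genes were all that passed without day 3 replicate 1. Mfge8 was chosen after its values were seen, as were Slc6a8, Hpse, Syngr1, Baiap2 and Prok2.

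Without the 3 weakly separating arrays, which leaves a pair of arrays for each day, 9 genes passed, of which 8 were higher on day 3. Beside Mfge8, Apoe and Sdc1 they were Apoc1, an apolipoprotein beside Apoe in the genome, at 3.32, 6.28 and 5.0 on day 3 (2.32 without the 3 arrays), the creatine transporter Slc6a8 (2.22), the heparanase Hpse (2.23), Syngr1 (1.96) and Baiap2 (1.35). The lower gene was Prok2, a secreted peptide of neutrophils and other cells, with -2.22 ± 0.22 (limma adjusted p = 0.00298). Prok2 measured 6.21, 3.97 and 3.90 on day 3, 4.38 to 6.19 on day 1, 5.32 to 6.63 on day 7 and 3.66 to 3.90 in the intact group. Here the first day 3 array was with days 1 and 7 and the other pair with the intact arrays. Day 3 replicate 1 is also the day 3 array with the labelling control at 6.88 and the weak separation of 0.832. Its means over marker lists described below differed too. For type 2 and type 1 alveolar cells they were 6.05 and 6.33, against 5.09 and 5.31 on replicate 2 and 5.17 and 5.43 on replicate 3. Endothelial and fibroblast means were 5.69 and 4.25, against 4.56 and 3.49 on replicate 2 and 4.72 and 3.52 on replicate 3. Airway epithelial markers did not differ so, at 4.56 against 4.47 and 4.73. The part of any of these in the splits was not tested.

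**Figure D4:**
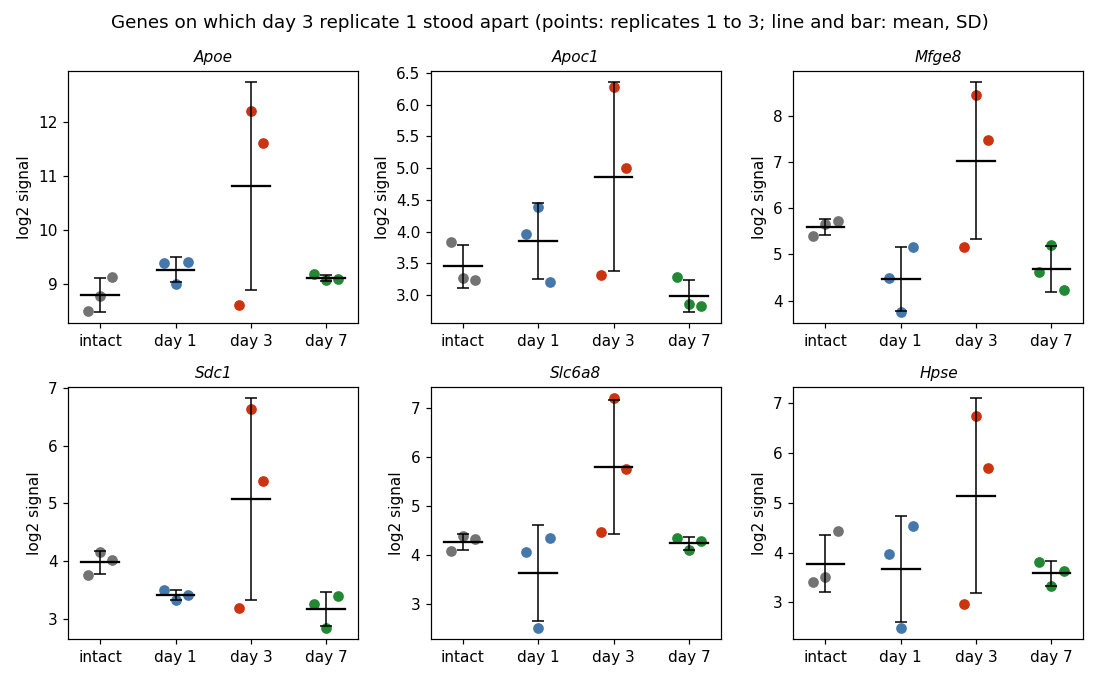
Log2 signal (y axis) of 6 genes on each array by group (x axis); points are replicates 1 to 3, the line is the mean and the bar the SD of 3 arrays. In each panel day 3 replicates 2 and 3 are the highest 2 arrays, for Apoe at 12.22 and 11.61, and day 3 replicate 1 lies with the other groups.

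Of 16 measured genes of lipid-associated macrophages, 4 were higher on day 3 at an unadjusted p under 0.05, 25% beside 4.97% of all probe sets, and 0 were lower. They were Apoe, Apoc1, the cholesterol exporter Abca1 and the glycoprotein Gpnmb. Abca1 measured 7.79, 8.48 and 8.06 on day 3, 6.86 to 7.15 on day 1 and 7.99 to 8.09 on day 7, so it differed from day 1 by 1.07 and from day 7 by 0.07. The list's median was 0.16, and the count ran from 1 without day 3 replicate 2 to 6 without day 3 replicate 1. With bioB as a covariate 2 were higher and 2 lower, with a median of -0.15. Cholesterol synthesis had 0 of 19 members past that p in either direction, with a median of -0.08. Without the 3 weakly separating arrays 1 was higher and 3 lower, and with bioB 12 were lower, with a median of -0.71.

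Growth factors known from liver regeneration had 7 of 27 measured members higher at an unadjusted p under 0.05 (25.9% beside 4.97%), and 1 lower (3.7% beside 2.16%). Vegfa, which drives growth of vessels, measured 6.33, 6.66 and 5.91 on day 3, 5.0, 3.40 and 5.06 on day 1 and 5.17, 5.86 and 4.68 on day 7. Its day 3 arrays lay above all 6 but overlapped the intact arrays at 5.41 to 6.21. The difference was 1.44 ± 0.37, or 2.72-fold (limma adjusted p = 0.457), and it was 0.63 with bioB as a covariate. Hgf, the hepatocyte growth factor, measured 5.24, 5.85 and 5.09 on day 3, 4.08, 2.99 and 4.63 on day 1, 4.94, 4.84 and 4.43 on day 7 and 5.31 to 5.35 in the intact group. Its day 3 level was that of intact mice, 0.06 apart, and the difference of 1.07 ± 0.30 came from lower levels on the flanking days. When bioB was a covariate it was 0.31.

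Igf1, a growth factor that macrophages secrete, measured 8.02, 9.42 and 8.42 on day 3, 6.99 to 7.77 on day 1 and 7.79 to 8.23 on day 7, a difference of 0.94 ± 0.35 that was 0.60 with bioB as a covariate. The other 4 higher members were Csf1, which sustains macrophages, Fgf1, Igf2 and Tgfa, with differences of 0.83, 0.68, 0.57 and 0.35. Ereg, an EGF receptor ligand, was the lower member, at -0.62. The mean over the list was 4.68 to 4.87 on day 3, 3.96 to 4.55 on day 1, 4.52 to 4.68 on day 7 and 4.77 to 4.95 in the intact group. Day 3 was thus nearest to the intact level. The count ran from 3 without day 7 replicate 3 to 9 without day 1 replicate 3, and with bioB as a covariate 1 was higher and 2 were lower.

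In the complement list 4 of 15 measured genes were higher (26.7% beside 4.97%) and 1 was lower (6.7% beside 2.16%). C3ar1, the receptor for the fragment C3a, measured 6.27, 7.85 and 7.27 on day 3, 5.60, 3.97 and 5.78 on day 1, 6.46, 6.90 and 6.34 on day 7 and 5.08 to 6.02 in the intact group. Days 3 and 7 overlapped, and the difference of 1.29 ± 0.42 was 2.01 against day 1 and 0.56 against day 7. In the fit with bioB it was 0.32. C5ar1, the receptor for C5a, had the opposite order, at 6.92, 7.35 and 7.73 on day 3 against 8.11 to 8.36 on day 1 and 7.40 to 8.20 on day 7, a difference of -0.71 ± 0.20. Cd55, which speeds the decay of complement convertases, differed by 1.06 ± 0.36, with C4b at 0.59 and C2 at 0.50. The count of 4 became 1 without day 3 replicate 2 and 6 without the 3 weakly separating arrays. With bioB as a covariate 2 were higher and 4 lower, and the median turned from 0.31 to -0.17.

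Inflammatory cytokines and chemokines had 2 of 29 members higher (6.9% beside 4.97%) and 1 lower (3.4% beside 2.16%), with a median of -0.18. The lower count was not stable, at 7 without day 1 replicate 2, 7 without the 3 weakly separating arrays and 15 with bioB as a covariate, where the median was -1.07. Tnf, a cytokine that macrophages release early in inflammation, was among the brightest, at 10.18, 9.58 and 10.65 on day 3 against 10.36 to 11.14 on day 1 and 10.68 to 10.95 on day 7. It differed by -0.66 ± 0.23, and the day 3 arrays lay below the intact ones. The higher members were Cxcl16, at 1.08 ± 0.41, and Ccl24, at 0.59 ± 0.27. Cxcl16 was -0.18 with bioB as a covariate. The NF-kB list had 1 of 18 members lower (5.6% beside 2.16%), Nfkbiz at -0.42, and 0 higher. It had 4 lower without day 1 replicate 2, 3 without the weakly separating arrays and 10 with bioB.

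Interferon-induced genes had 4 of 28 members higher (14.3% beside 4.97%). They were Ifit3, Mx2, Rsad2 and Gbp3, with differences of 0.80, 0.80, 0.56 and 0.52. Ifit3 measured 5.82, 4.80 and 5.0 on day 3, 3.88 to 5.06 on day 1, 4.18 to 4.55 on day 7 and 5.70 to 6.55 in the intact group. Day 3 lay between the flanking days and the intact mice, and the list's median was 0.20 in the comparison but -0.40 against intact. The count ran from 1 without day 3 replicate 1 to 8 without day 3 replicate 2. When bioB was a covariate 2 were higher and 6 lower, the median was -0.15 and Mx2 was at -0.00.

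Immediate early genes, transcription factors switched on within minutes of a stimulus, had 4 of 25 members higher (16% beside 4.97%) and 1 lower (4.0% beside 2.16%). Fos was tight, at 9.65, 9.65 and 9.61 on day 3, 8.79 to 9.20 on day 1, 9.35 to 9.53 on day 7 and 9.50 to 9.81 in the intact group. It stood above all 6 flanking arrays and inside the intact range, with a difference of 0.38 ± 0.14. Nr4a2, an orphan nuclear receptor, differed by 1.05 ± 0.38, with 1.65 against day 1, 0.46 against day 7 and 0.20 with bioB as a covariate. Fosl1 was the lower member, at 5.94 to 6.06 on day 3 against 6.23 to 6.98 on days 1 and 7. The count ran from 1 without day 3 replicate 2 to 6 without day 3 replicate 1, and with bioB as a covariate 0 were higher and 4 lower.

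Clock and steroid-response genes gave 2 higher members each (11.1% and 11.8% beside 4.97% of all probe sets). Of 18 clock genes these were Arntl, the partner of CLOCK, at 5.19, 4.55 and 4.46 on day 3, 2.53 to 4.62 on day 1 and 3.12 to 4.30 on day 7, and Dbp, an output gene of the clock. Their differences were 1.12 ± 0.39 and 1.00 ± 0.37, and with bioB as a covariate they were 0.04 and 0.96. The mRNAs of these genes are known to cycle in opposite phase. The hour of collection is not given in the sources used here. Of 17 genes of the glucocorticoid response they were Zbtb16, at 0.70 ± 0.25, and Tsc22d3, at 0.63 ± 0.27. With bioB they were 0.20 and 1.09. The lists for the unfolded protein response (18 measured), cytosolic ribosomal proteins (26) and the respiratory chain (30) had 0 members past an unadjusted p of 0.05 in either direction, with medians of 0.09, -0.04 and 0.09. In the fit with bioB 3, 6 and 7 of their members were lower.

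Smaller lists gave single genes, read beside the shares of 4.97% higher and 2.16% lower among all probe sets. Oxidative stress had 1 of 20 members higher (5.0%), Ptgr2, a prostaglandin reductase, at 4.28 to 4.60 on day 3 against 3.67 to 4.27 on days 1 and 7. Iron and heme handling had 2 of 17 higher (11.8%), the heme exporter Flvcr1 at 0.52 and the iron regulatory protein Ireb2 at 0.62. With bioB as a covariate the oxidative stress list had 0 higher and 6 lower, and the iron list 0 higher and 3 lower. MHC class II presentation had 2 of 13 higher (15.4%), the regulator Rfxap at 0.43 and Ctss at 0.39, and 1 lower (7.7%), H2-Oa at -0.46. Without the 3 weakly separating arrays 0 of the 13 were higher and 0 lower, and with bioB 0 were higher and 5 lower. The median of that list went from 0.31 to -0.01 and -0.46. Alternative activation and glycolysis had 1 higher member each, of 17 and 20 (5.9% and 5.0%), and for both this was a gene of another list, Ccl24 and Vegfa. With bioB alternative activation had 1 higher and 4 lower, and glycolysis 0 higher and 8 lower, with a median of -0.74. Slc40a1, the iron exporter, Saa3, an acute phase protein, and Cxcl13, a chemokine for B cells, differed by 0.29 ± 0.29, 0.72 ± 0.57 and 0.25 ± 0.55. Their day 3 arrays overlapped the flanking days and lay above the intact ones.

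**Figure D5:**
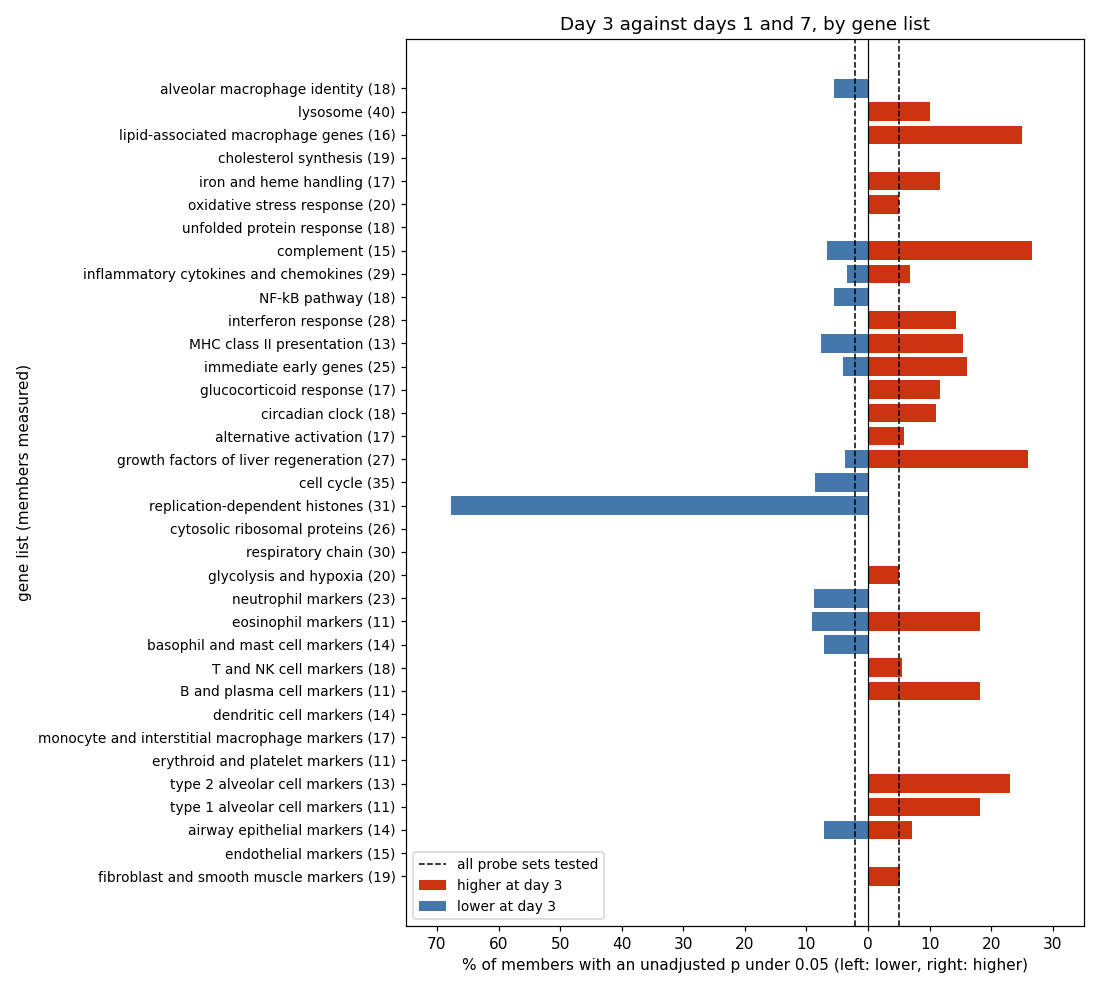
Share of each list's measured members (number in brackets, y axis) with an unadjusted p under 0.05, in percent (x axis), lower on day 3 to the left and higher to the right; dashed lines mark the shares among all probe sets, 2.16% lower and 4.97% higher. The histone bar reaches 67.7% on the left, and the bars for complement, growth factors and lipid-associated genes reach 25% to 26.7% on the right.

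Genes of the other cells that beads against Siglec F could hold were looked at in the same way. Eosinophil markers had 2 of 11 members higher (18.2% beside 4.97% of all probe sets) and 1 lower (9.1% beside 2.16%). Il5ra, a chain of the interleukin 5 receptor, measured 3.92, 3.92 and 4.47 on day 3, 2.11 to 2.60 on day 1, 3.13 to 4.39 on day 7 and 2.47 to 2.62 in the intact group. Ccr3, the eotaxin receptor, measured 4.98, 5.28 and 6.26 on day 3, 2.50 to 3.49 on day 1, 4.96 to 7.16 on day 7 and 3.01 to 3.60 in the intact group. Both were therefore alike on days 3 and 7, above day 1 and above the intact arrays, and neither stood apart on day 3. The lower member was Ear6, opposite to the receptors. With bioB as a covariate 1 eosinophil marker was higher and 4 were lower. The mean over the list was 5.14 to 5.99 on day 3, 4.45 to 5.35 on day 1 and 5.41 to 6.48 on day 7.

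Epithelial marker levels were partly higher on day 3. Type 2 alveolar cell markers had 3 of 13 members higher and type 1 markers 2 of 11 (23.1% and 18.2% beside 4.97% of all probe sets), with medians of 0.49 and 0.55. The means over the 2 lists were 5.09 to 6.05 and 5.31 to 6.33 on day 3, 3.92 to 5.69 and 4.58 to 5.45 on day 1, and 4.86 to 5.22 and 4.98 to 5.72 on day 7. On the intact arrays they were 5.99 to 6.35 and 5.80 to 6.31. The highest day 3 array was replicate 1 for both lists. Without the 3 weakly separating arrays the medians were -0.17 and 0.08, without day 3 replicate 1 they were 0.17 and 0.14, and with bioB as a covariate -0.60 and 0.29. Pdpn, podoplanin, which macrophages can also carry, was the largest of the called members, at 5.53, 7.10 and 6.35 on day 3, 4.65 to 5.24 on day 1 and 4.92 to 5.83 on day 7. Cldn18, a tight junction gene of type 1 cells, was at 7.87 on day 3 replicate 1 and at 4.84 and 5.80 on the other pair. The part of epithelial RNA in the higher genes above was not tested.

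Neutrophil markers had 0 of 23 members higher and 2 lower (8.7% beside 2.16% of all probe sets), G0s2 at -0.54 and Ngp at -0.83. The list means were 6.50 to 7.27 on day 3, 6.31 to 7.20 on day 1 and 6.88 to 7.57 on day 7. When bioB was a covariate 11 neutrophil markers were lower, with a median of -0.90. T and NK cell markers had 1 of 18 higher (5.6% beside 4.97% of all probe sets). It was Il7r, the interleukin 7 receptor, at 6.27, 7.05 and 6.70 on day 3, 4.50 to 5.91 on day 1, 5.43 to 5.70 on day 7 and 5.01 to 6.14 in the intact group. Its day 3 arrays stood above all 9 others, with a difference of 1.27 ± 0.31 (0.60 with bioB as a covariate), while the list's mean was 2.83 to 3.13 on day 3 and 2.77 to 3.03 on days 1 and 7, at background. B and plasma cell markers had 2 of 11 higher (18.2% beside 4.97%), Sdc1 and Jchain, and the latter, at 0.88 ± 0.36, was -0.07 with bioB as a covariate. Basophil and mast cell markers had 1 of 14 lower (7.1% beside 2.16%), Cma1, at background on every array. Dendritic cell markers (14), monocyte and interstitial macrophage markers (17), erythroid and platelet markers (11) and endothelial markers (15) had 0 members past that p, though the endothelial median was 0.31 and became -0.18 without the 3 weakly separating arrays. Airway epithelial markers had 1 of 14 higher (7.1% beside 4.97%), Bpifa1 at 0.79, and 1 lower (7.1% beside 2.16%), Epcam at -0.80. Fibroblast and smooth muscle markers had 1 of 19 higher (5.3% beside 4.97%), Npnt at 1.28 ± 0.53, with 7.66 on day 3 replicate 1 and 5.0 and 5.09 on the other pair. Col3a1, a collagen of fibroblasts, measured 2.26 to 2.73 on day 3, 2.53 to 3.45 on days 1 and 7 and 4.34 to 5.23 in the intact group. It was the gene that passed adjustment on day 3 against intact (-2.37 ± 0.25, limma adjusted p = 0.0135, 0.00450% of probe sets), and it did not stand apart from the flanking days.

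The 2 sides of the comparison were also fitted alone. They share the day 3 arrays. Against day 1, an unadjusted p under 0.05 was reached by 1403 higher (6.32%) and 729 lower (3.28%) probe sets, with 0 past adjustment in limma and a smallest adjusted p of 0.242. Against day 7, 688 were higher (3.10%) and 450 lower (2.03%), with 0 past adjustment and a smallest adjusted p of 0.114. Days 1 and 7 themselves were apart at that p for 846 probe sets higher on day 7 (3.81%) and 651 lower (2.93%), with 0 past adjustment and a smallest adjusted p of 0.573. The 2 sides differed by gene. Cdo1 was 1.61 above day 1 and 2.39 above day 7, Cd63 was 1.62 and 1.27 above, and H4c11 was -0.67 and -1.02 apart, so these stood away from both. Ccr3, at 2.44 and -0.56, C3ar1, at 2.01 and 0.56, and Abca1 stood away from day 1 alone.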

How the data were processed

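RNA of sorted alveolar macrophages was hybridised to Clariom S mouse arrays, 3 biological replicates a group per the labels. The deposited table holds log2 signals. The authors used RMA and the Transcriptome Analysis Console, per the submitters' processing notes; versions and genome build are not given in the sources used here. RMA corrects background, normalizes quantiles and summarises probes. The log2 scale was inferred from the deposited values, which were not altered. Control probe sets (6640 of 28846, among them 1324 exon and 5222 intron controls) were left out of the tests. Of the 22206 others, the probe annotation gave 19572 exactly 1 gene symbol and 2634 none.

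One linear model over all 12 arrays with the group as its only term was fitted in limma 3.58.1 (R 4.3.3), with the contrast of day 3 against the mean of days 1 and 7, default empirical Bayes moderation, two-sided p-values, Benjamini-Hochberg adjustment over 22206 probe sets and a threshold of 0.05. Nothing says how animals were pooled, so p-values measure the spread between these samples, which may be technical. Control measures were compared by exact permutation in SciPy 1.17.1. No pair of arrays correlated above 0.990 over probe sets.

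The members and the 35 lists (753 entries, 688 measured, 4 by an older symbol, the brightest probe set for each gene), the motifs and the alternatives were chosen with earlier results of these data known. Lists are described by counts and medians. Named genes were the 15 with the smallest p in each direction among genes with 1 symbol whose day 3 arrays lay outside the 6 arrays of days 1 and 7, up to 4 members of each list, and 10 fixed genes. The rule would have ranked genes past the threshold by size, but 0 passed. Predicted genes, chemosensory receptors, small RNAs and antigen receptor segments were left out. Promoters came from RefSeq (GRCm38.p6), matched by symbol. Alternatives were other moderation, filters on dim probe sets, other scaling, a replicate block, array weights, other summaries by gene, and leaving out or adjusting for arrays with odd controls or each array in turn.

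Tested on simulated data of this comparison with 22206 probe sets, the fit called 62% of 50 genes altered 2-fold and 100% of those altered 4, 8 or 16-fold, and 6 of its 187 calls were false. The simulated noise was independent between arrays and probe sets, with no array of odd quality and no control that moved with the day. These shares therefore do not carry over to the real arrays, where Cdo1 at 4.0-fold had a limma adjusted p of 0.199. Precision is limited by the 3 arrays a group.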

Additional observations from a re-analysis of the deposited data

Results flagged for a closer look

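The labelling control dap, a spike outside the genes compared, lay above its level in the intact group (at most 2.40) by several log2 units on 3 arrays. It was 6.88 on day 3 replicate 1, 7.77 on day 7 replicate 2 and 6.47 on day 7 replicate 3.

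The hybridisation control bioB lay above its intact level (at most 7.72) on all arrays of days 1 and 7. It was 8.65, 10.29 and 8.62 on the 3 day 1 arrays and 8.19, 8.55 and 8.36 on the 3 day 7 arrays, against 7.44 to 7.83 on day 3. Because this spike runs with the comparison, bioB and day cannot be fully told apart, and its part in the gene differences was not tested.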

How the results depend on the processing

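Of 2528 values of 88 named genes under the alternatives, 2508 kept their sign and their side of the threshold, 8 passed it and 12 changed sign. Day 3 against days 1 and 7 had 0 genes past adjustment in either direction. Higher genes past adjustment numbered 8 without the 3 weakly separating arrays, 8 with bioB as a covariate, and 0 to 3 when 1 array was left out (2 without day 1 replicate 3, 3 without day 3 replicate 1). Lower genes numbered 1 without the weakly separating arrays and 102 with bioB as a covariate, of which 6 were histones. Of the 110 calls with bioB, 64 had the same sign without it, so this covariate reorders the comparison. The fit with it rests largely on day 1 replicate 2, where bioB was 10.29, against 8.65 and 8.62 on the other day 1 arrays. The cause of the reordering was not tested.

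At an unadjusted p under 0.05, the 1103 higher probe sets became 373 among those above the intron controls on 3 arrays, 713 in the upper part of the signal range and 645 without the arrays carrying the labelling control. The first 2 of these test fewer probe sets. The 479 lower ones became 308 with only the 9 arrays of days 1, 3 and 7, 109 above the intron controls, 167 in the upper part, 956 with array weights, 756 without the weakly separating arrays and 2171 with bioB as a covariate. Probe sets with day 3 arrays outside the other days numbered 1720 above and 1627 below without the weakly separating arrays, where fewer arrays are compared.

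With bioB as a covariate Cxcl16 was at -0.18, Mx2 at -0.00 and Jchain at -0.07. Siglecf, near 0, was at -0.06 after quantile normalization, -0.02 after median centring and with array weights, -0.07 without the weakly separating arrays, -0.45 with bioB, and -0.10 to 0.09 when 1 array was left out.

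Whether the replicate numbers pair the arrays was not settled. Deviations correlated over 0.1 in 3 of 9 same-numbered pairs (range -0.24 to 0.26), and differently numbered pairs were not compared. With a replicate block 0 genes passed adjustment and the smallest adjusted p was 0.452. With 3 arrays a group, differences of 2-fold or less are often missed, larger ones can be missed too, and dim genes lie within the signal of the intron controls.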
